A study of Mus musculus with 6 samples.

Results

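The proteasome genes of hepatic CD11c+ cells were followed in mice that lacked Atg5, a protein required to build autophagosomes, in CD11c-expressing cells. Members were taken by gene symbol, as all genes named Psma, Psmb, Psmc, Psmd, Psme, Psmf or Psmg with a number, without 4 pseudogenes, which gave 50 of the 31426 genes in the table of estimated counts. The series held 6 RNA-seq libraries of liver CD11c+ cells from male C57BL/6 mice, labelled as 4 to 8 weeks of age, all fed a high-fat diet (HFD) for 14 weeks. WT libraries were numbered 21, 22 and 23, and Atg5 CD11cKO libraries 25, 26 and 27 (KO 25, KO 26 and KO 27). Atg5 CD11cKO mice were, by the study's methods, homozygous for floxed Atg5 and for a Cre driven by the Itgax (CD11c) promoter. That promoter is active in dendritic cells (DCs) and also in macrophages that express CD11c. The study names floxed littermates as WT. Cells were isolated with magnetic beads against CD11c, and 10 ng of RNA went into each library. The legend of the study's plot of these data gives an n equal to the number of libraries, but whether a library came from a single mouse or a pool could not be learned from the sources used here, so p-values measure only the spread between these libraries, which may be technical.

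The proteasome is the protease that degrades ubiquitin-tagged proteins. Its core is a stack of rings, with outer rings of alpha subunits that form the gate and inner rings of beta subunits that include the catalytic ones. A regulatory cap, made of a ring of ATPases (Psmc genes) and of non-ATPase subunits (most Psmd genes), binds the ubiquitin-tagged substrate, unfolds it and feeds it to the core. In immune cells, and in other cells exposed to interferon-gamma, the catalytic subunits Psmb5, Psmb6 and Psmb7 are replaced in newly made cores by Psmb8, Psmb9 and Psmb10, which gives the immunoproteasome, and the core can also be opened by the activator made of Psme1 and Psme2. The immunoproteasome generates many of the peptides that MHC class I molecules present, and DCs are known to express it without stimulation. The transcription factor NRF1 (Nfe2l1) induces core and cap genes together when proteasome activity falls short, through antioxidant response elements, whereas the immunoproteasome genes are known targets of interferon-regulatory factors.

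By role, the 50 genes comprised 8 alpha ring subunits, 4 non-catalytic beta subunits, 3 constitutive catalytic subunits, 5 immunoproteasome genes (Psmb8, Psmb9, Psmb10, Psme1 and Psme2), 6 cap ATPases, 11 cap non-ATPases, 4 other activators and inhibitors, 7 assembly factors, 1 thymus-specific catalytic subunit (Psmb11) and 1 gene that encodes no subunit (Psmc3ip, a meiotic recombination protein that carries the symbol). The symbols thus covered proteins around the proteasome as well as its subunits.

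Promoter windows of 300 bases, from 250 before to 50 after the RefSeq transcript start (GRCm38.p6), were found for 42 of the 50 genes and searched on both strands for 4 elements, the antioxidant response element core, the interferon-regulatory factor element, the gamma-activated site through which interferon-gamma acts, and the CCAAT box, a common promoter element. The first set shows the windows of the 3 immunoproteasome genes that were lower without the library labelled WT 23 (below), with the matched element in capitals: an interferon-regulatory factor element (GAAA, any 2 bases, GAAA) for Psme1 at chr14:55578493-55578522 (+), a gamma-activated site (TTCNNNGAA) for Psmb8 at chr17:34198088-34198117 (+), and a CCAAT box for Psmb9 at chr17:34187321-34187350 (-). The elements of Psme1 and Psmb9 lie on the strand opposite to the gene.
Psme1: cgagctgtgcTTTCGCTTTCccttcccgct
Psmb8: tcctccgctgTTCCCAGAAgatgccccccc
Psmb9: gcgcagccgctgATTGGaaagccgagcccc

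The next set shows the antioxidant response element core (TGACNNNGC) in capitals in Psmb6 at chr11:70525338-70525367 (+) and Psmb5 at chr14:54618023-54618052 (-), both constitutive catalytic subunits, and in the ATPase gene Psmc6 at chr14:45329587-45329616 (+), where it lies on the opposite strand.
Psmb6: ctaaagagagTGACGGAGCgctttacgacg
Psmb5: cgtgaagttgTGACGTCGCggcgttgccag
Psmc6: ccagccagtaGCTAAGTCAggcattgctca
Counted from the RefSeq start, these elements begin at -9 in Psmb6, -47 in Psmb5 and -227 in Psmc6. The antioxidant response element core was present in 6 of the 42 windows (14.3%) and in 14% of 27025 gene windows of the same length. Beside the genes shown, Psmd12, Psmd9 and Psme4 carried it. The interferon-regulatory factor element was found in 5 of 42 (11.9%) against 3.99% of all windows (Psmb3, Psmd4, Psmd9, Psme1 and Psmg4, of which Psme1 alone is an immunoproteasome gene), the gamma-activated site in 3 of 42 (7.14%) against 9.55%, and the CCAAT box in 15 of 42 (35.7%) against 41.1%. These matches describe letters in a short window and no binding was measured.

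Libraries held 31064570 to 34034675 estimated counts, of which the 50 genes took 0.665% to 0.696%. Atg5 stood at 54.0 and 49.8 CPM (counts scaled to the TMM-adjusted size of each library) in WT 21 and WT 22, at 21.3, 21.0 and 20.8 CPM in the Atg5 CD11cKO libraries, and at 22.1 CPM in the library labelled WT 23. Over all genes, the library labelled WT 23 differed from each Atg5 CD11cKO library by 6.3 to 7.92 chi-square units per degree of freedom, about as much as these differed among themselves (6.81 to 7.68), and from WT 21 and WT 22 by 236 and 235. WT 21 and WT 22 differed from each other by 10.8, so no pair of libraries agreed within sampling noise (a value of 1). The library labelled WT 23 thus went against its label, and counts of genes called are given for the 6 libraries as labelled and without it. Fold changes and adjusted p-values that name no set of libraries are without it. For many genes only these are given. Itgax itself ranged from 432 to 492 CPM over the 6 libraries.

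WT 21 and WT 22 also stood apart in markers of other cells. Summed levels in WT 21 and WT 22 were 18730 and 18390 CPM for 12 pancreatic acinar genes against 359 to 390 CPM in the other libraries. They were 2236 and 2219 CPM for 12 hepatocyte genes against 959 to 993 CPM, and 1923 and 1902 CPM for 7 plasmacytoid DC genes against 757 to 770 CPM. For 6 NK and ILC1 genes they were 1207 and 1171 CPM against 285 to 300 CPM, and for 7 lipid-associated macrophage genes 596 and 592 CPM against 3543 to 3586 CPM. No marker in these lists was at 0 in every library. The part of these cells in the values below was not tested. In bulk libraries, fewer cells of a type and less RNA per cell cannot be told apart.

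Between the 6 libraries as labelled, none of the 49 proteasome genes that could be tested passed edgeR's quasi-likelihood test at an adjusted p of 0.05 in either direction, where 0% of the 17499 genes tested were called higher and 0% lower. Neither DESeq2 (0 members) nor limma-voom (0 members) called any. At an unadjusted p under 0.05 stood 5 of 49, beside 14.4% of all genes. These were Psmb9, Psme1, Psmd5, Psmd6 and Psmd10. Without the library labelled WT 23, 11 members were higher in Atg5 CD11cKO cells and 6 lower, where 15.9% of 18241 genes were called higher and 15.1% lower, and 32 did not pass. These were 22.4% and 12.2% of the members, the former above and the latter below the share of all genes. On the deposited normalized values, 7 of the 17 calls remained with a pseudocount of 1 (Psmb8, Psmb9, Psme1, Psmc6, Psmd1, Psmd5 and Psmd10) and 3 with a pseudocount of 0.1 (Psmb9, Psme1 and Psmd5). Calls over all genes fell as well with a pseudocount of 0.1, to 1499 higher and 1604 lower of 20388 genes, from 2900 and 2755 by edgeR. The number of all genes called with a pseudocount of 1 is not reported here. Fold changes were small. The median log2 fold change (Atg5 CD11cKO over WT) was 0.04 over the members and -0.01 over all genes tested, and its median absolute size was 0.13 against 0.35. An absolute value of 0.5 or more was found in 2 members, Psmb9 and Psmc3ip, against 37.5% of all genes, and none reached 1. These comparisons with all genes were not matched for expression level, and genes with few counts have wider errors.

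WT 21 and WT 22 did not overlap the Atg5 CD11cKO libraries in 32 of the 49 tested members, where 55% of all genes tested did not overlap. Of the 17 members called without it, the library labelled WT 23 lay nearer to the Atg5 CD11cKO mean in 16 and within the Atg5 CD11cKO range in 9, and it lay between WT 21 and WT 22 in none. Over all 49 tested members, that library lay nearer to the Atg5 CD11cKO mean in 36. These positions were not counted over all genes, where that library also stood with the Atg5 CD11cKO libraries (above). The counts therefore show nothing particular to the members. The spread between libraries of a group was small, with a median coefficient of variation over the members of 3.25% between WT 21 and WT 22 and 3.83% among Atg5 CD11cKO libraries.

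**Figure D1:**
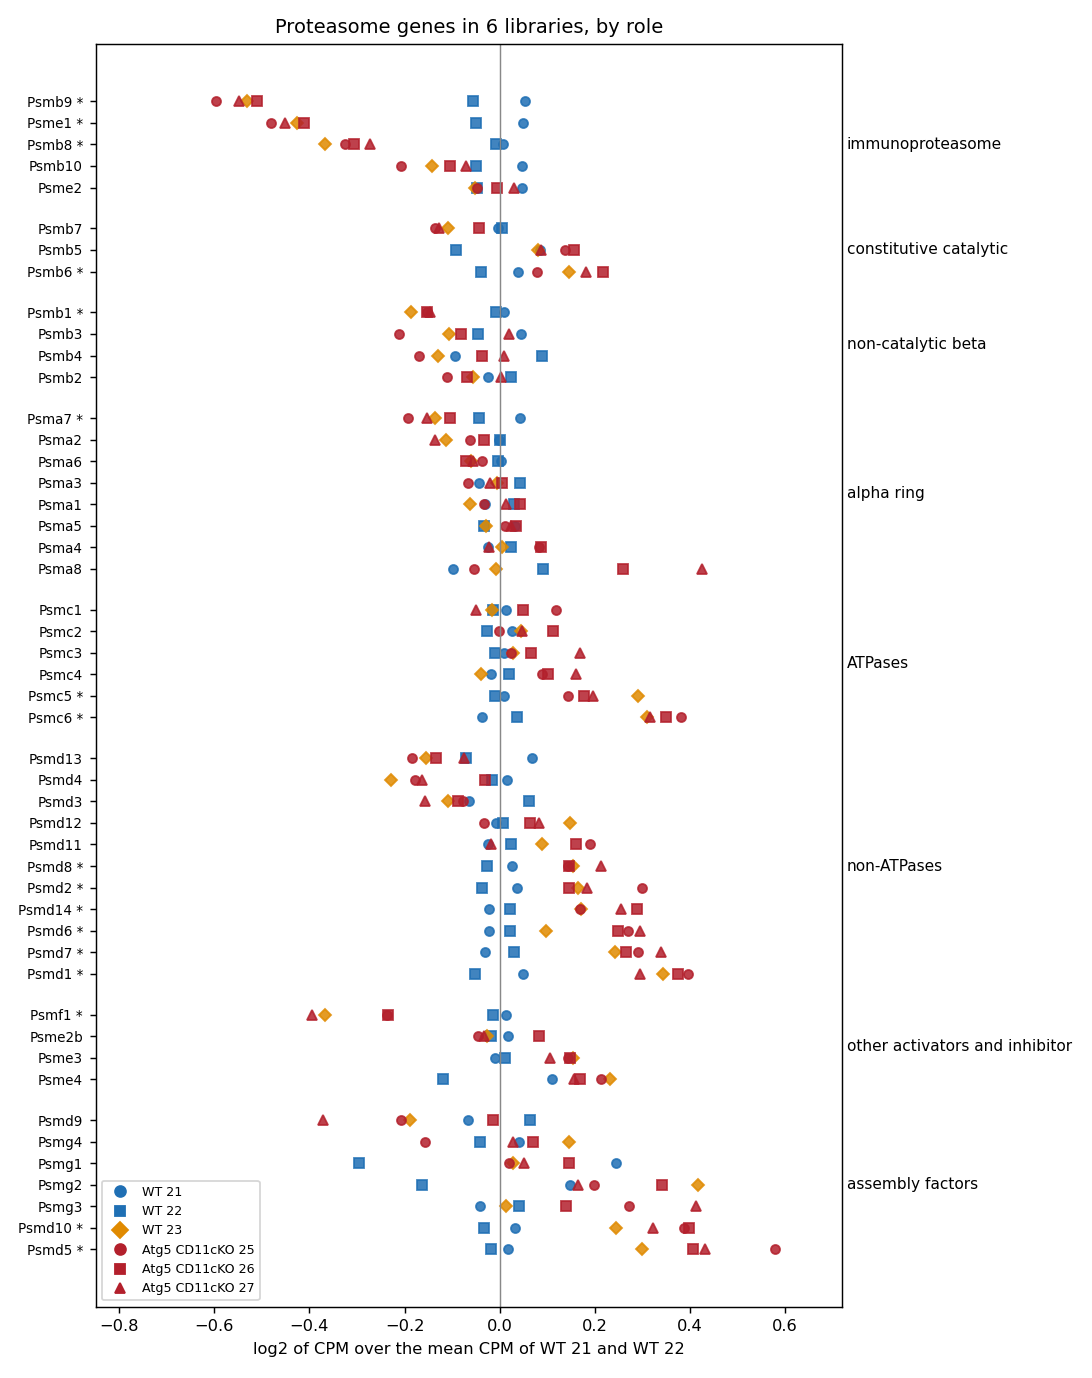
Level of 48 tested proteasome genes in each library, as the log2 of its CPM over the mean CPM of WT 21 and WT 22 (horizontal axis), with genes ordered within 8 role groups and a star where edgeR's adjusted p was under 0.05 without the library labelled WT 23. Psmc3ip, which encodes no subunit, and Psmb11, which was not tested, are left out. Psmb9 and Psme1 lay lowest of the genes plotted in each Atg5 CD11cKO library and in the library labelled WT 23, and Psmd5 lay highest in each Atg5 CD11cKO library.

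The immunoproteasome genes held the most reduced of the members that passed without the library labelled WT 23. Psmb9 and Psme1, followed by Psmb8, were lower in Atg5 CD11cKO libraries than in WT 21 and WT 22, while Psmb10 and Psme2 did not pass the test. Together the 5 genes made up 32.4% and 31.6% of all member counts in WT 21 and WT 22, 26.4%, 26.7% and 27.0% in the Atg5 CD11cKO libraries and 26.8% of those of the library labelled WT 23. Their median log2 fold change was -0.30 without the library labelled WT 23 (3 of 5 lower, none higher) and -0.19 over the 6 libraries as labelled (0 of 5 called). Of all genes tested without that library, 15.1% were lower and 15.9% higher.

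Psmb9 (chr17:34181987-34187764, minus strand, mm10) encodes the inducible subunit that takes the place of Psmb6. It measured 412 and 382 CPM in WT 21 and WT 22, 275 CPM in the library labelled WT 23, and 262, 278 and 272 CPM in the Atg5 CD11cKO libraries. WT 21 and WT 22 (397 ± 21.4, SD, n = 2) lay above every other library, and the library labelled WT 23 lay within the Atg5 CD11cKO range (271 ± 8.08, SD, n = 3). Without the library labelled WT 23 the log2 fold change was -0.55 with a standard error (SE) of 0.044 (edgeR adjusted p = 2.62e-06), and over all 6 it was -0.40 with an SE of 0.148 (adjusted p = 0.341).

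Psme1 (chr14:55578123-55581529, plus strand) encodes the alpha subunit of the interferon-inducible activator. Its level was 558 and 521 CPM in WT 21 and WT 22, 401 CPM in the library labelled WT 23, and 387, 405 and 394 CPM in the Atg5 CD11cKO libraries. Again both WT 21 and WT 22 were high and the other 4 libraries were low without overlap. Its log2 fold change stood at -0.44 with an SE of 0.039 once the library labelled WT 23 was left out (edgeR adjusted p = 5.42e-06), and at -0.32 with an SE of 0.126 over the 6 libraries as labelled (adjusted p = 0.345). Psme2 (chr14:55587441-55591113, minus strand), the partner of Psme1 in the same ring, read 299 and 280 CPM in WT 21 and WT 22, 279 CPM in the library labelled WT 23 and 280, 288 and 296 CPM in Atg5 CD11cKO libraries. The groups overlapped, at a log2 fold change of -0.00 with an SE of 0.044 (edgeR adjusted p = 0.991 without the library labelled WT 23). The Psme1 to Psme2 ratio of counts was accordingly 1.87 in WT 21, 1.86 in WT 22 and 1.33 to 1.41 in Atg5 CD11cKO libraries, with 1.44 for the library labelled WT 23. Psme2 has a near-identical copy, Psme2b, whose transcript matched it at 99.4% over 794 bases, so counts may be split between them. With Psme2b added, the sum was 416 and 394 CPM in WT 21 and WT 22 and 392 to 411 CPM in the Atg5 CD11cKO libraries, which also overlapped.

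Psmb8 (chr17:34197721-34201454, plus strand), which replaces Psmb5, was the most highly counted member. It read 872 and 862 CPM in WT 21 and WT 22, 672 CPM in the library labelled WT 23, and 692, 701 and 717 CPM in Atg5 CD11cKO libraries. The library labelled WT 23 was the lowest of all 6, and the Atg5 CD11cKO libraries did not overlap WT 21 and WT 22. Its log2 fold change was -0.30 with an SE of 0.029 (edgeR adjusted p = 1.19e-05 without the library labelled WT 23) and -0.19 over the 6 libraries as labelled (adjusted p = 0.413). Psmb10 (chr8:105935735-105938444, minus strand), which replaces Psmb7, read 155 and 145 CPM in WT 21 and WT 22, 136 CPM in the library labelled WT 23, and 129.5, 139 and 142.5 CPM in the Atg5 CD11cKO libraries. The highest Atg5 CD11cKO library lay just under WT 22, and the log2 fold change of -0.12 with an SE of 0.058 did not pass (edgeR adjusted p = 0.148 without the library labelled WT 23, 0.637 over all 6).

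Of the 3 constitutive catalytic subunits, 1 was higher without the library labelled WT 23 and none lower, beside 15.9% and 15.1% of all genes. Psmb6 (chr11:70525367-70527858, plus strand), which has the caspase-like activity, read 190.2 and 180.4 CPM in WT 21 and WT 22, 205 CPM in the library labelled WT 23, and 196, 215.5 and 210 CPM in Atg5 CD11cKO libraries. All Atg5 CD11cKO libraries lay above WT 21 and WT 22, by a log2 fold change of 0.17 with an SE of 0.053 (edgeR adjusted p = 0.0326 without the library labelled WT 23, 0.517 over all 6). This call was lost when WT 22, KO 26 or KO 27 was also left out. Psmb5 (chr14:54614119-54618022, minus strand), with the chymotrypsin-like activity, read 105.5 and 93.3 CPM in WT 21 and WT 22, 105 CPM in the library labelled WT 23, and 109, 111 and 106 CPM in Atg5 CD11cKO libraries. WT 21 lay within 1 CPM of the lowest Atg5 CD11cKO library, and the log2 fold change of 0.13 with an SE of 0.066 did not pass (adjusted p = 0.153). Psmb7 (chr2:38588036-38644087, minus strand), with the trypsin-like activity, read 82.6 and 83.1 CPM in WT 21 and WT 22, 76.8 CPM in the library labelled WT 23, and 75.3, 80.4 and 75.8 CPM in Atg5 CD11cKO libraries. It was slightly lower in each Atg5 CD11cKO library than in WT 21 and WT 22, at a log2 fold change of -0.10 with an SE of 0.064 that did not pass (adjusted p = 0.300).

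**Figure D2:**
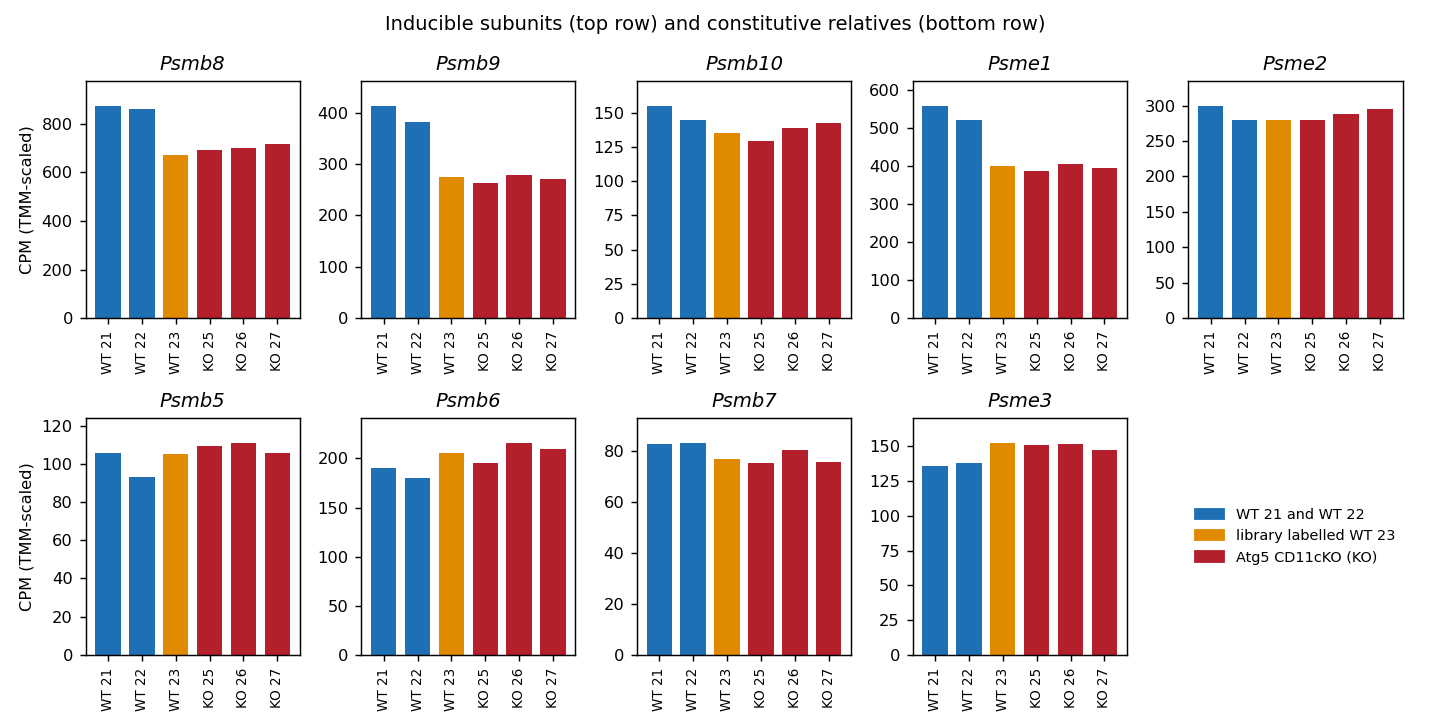
Level in CPM (vertical axes, each from 0) of the 5 immunoproteasome genes in the top row and of Psmb5, Psmb6, Psmb7 and Psme3 in the bottom row, with 1 bar for each library. Psmb8, Psmb9 and Psme1 were high in WT 21 and WT 22 and lower in the other 4 libraries, and no gene of the bottom row followed that pattern to the same extent.

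A ratio of an inducible gene to its constitutive relative within 1 library needs no scaling between libraries. The log2 ratio of Psmb9 to Psmb6 was 1.115 in WT 21, 1.081 in WT 22, and 0.422, 0.369 and 0.370 in the Atg5 CD11cKO libraries, with 0.422 for the library labelled WT 23. WT 21 and WT 22 (1.098 ± 0.024, SD, n = 2) thus exceeded the Atg5 CD11cKO libraries (0.387 ± 0.030, SD, n = 3) by more than the spread between replicates, with a difference of -0.711. For Psmb8 to Psmb5 the log2 ratio was 3.047 in WT 21, 3.208 in WT 22, and 2.660, 2.662 and 2.764 in Atg5 CD11cKO libraries, a difference of -0.432 with no overlap, and 2.677 was found for the library labelled WT 23. Psme1 to Psme3, a nuclear relative of Psme1 and Psme2 that forms an activator of its own, gave log2 ratios of 2.039 and 1.919, then 1.398, then 1.356, 1.421 and 1.423 in the same order, a difference of -0.579 with no overlap. Psmb10 to Psmb7 did not follow these 3 pairs. Its log2 ratio was 0.905 in WT 21, 0.800 in WT 22, and 0.782, 0.792 and 0.910 in Atg5 CD11cKO libraries, with 0.819 for the library labelled WT 23, so that the groups overlapped at a difference of -0.024.

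Each of the 3 ratios without overlap reached a p of 0.1 by a two-sided exact permutation test without the library labelled WT 23, the smallest that 2 against 3 libraries can give, and Psmb10 to Psmb7 had an exact p of 0.6 (0.13 and 0.6 adjusted over the 4 ratios). With all 6 libraries as labelled the differences were -0.485 for Psmb9 to Psmb6, -0.282 for Psmb8 to Psmb5, -0.385 for Psme1 to Psme3 and -0.013 for Psmb10 to Psmb7, with exact permutation p of 0.2, 0.2, 0.3 and 0.6 (0.4, 0.4, 0.4 and 0.6 adjusted), where 3 against 3 cannot go below 0.1. Neither design can reach 0.05.

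**Figure D3:**
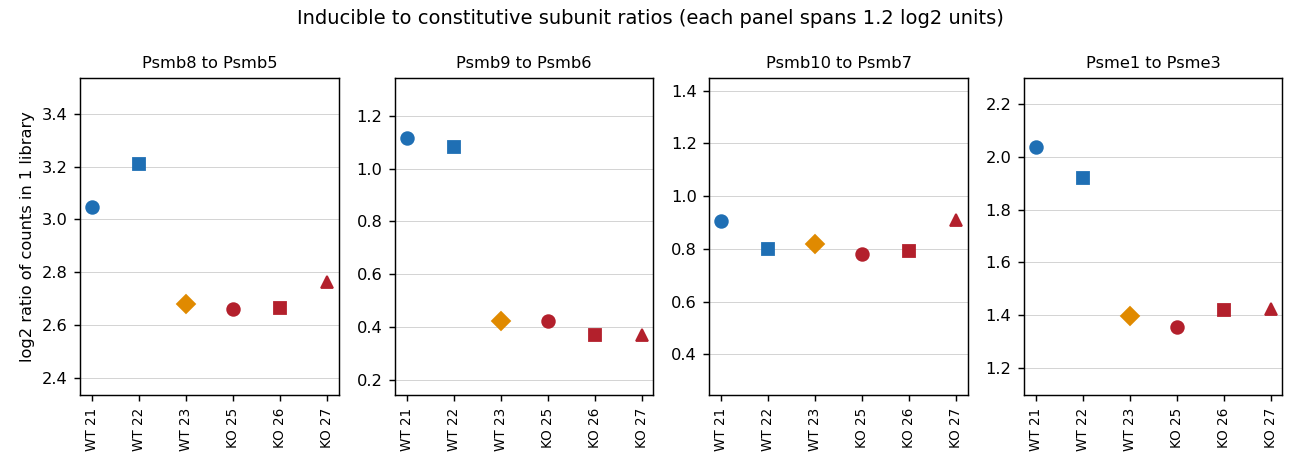
Log2 ratio of counts (vertical axes, each panel spanning the same range of log2 units) for 4 pairs of genes within each library. WT 21 and WT 22 lay above the other 4 libraries for Psmb8 to Psmb5, Psmb9 to Psmb6 and Psme1 to Psme3, and all 6 libraries lay between 0.782 and 0.910 for Psmb10 to Psmb7.

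Psmb8, Psmb9 and Tap1, a subunit of the transporter that carries peptides into the endoplasmic reticulum, lie side by side in the MHC region of chromosome 17. The RefSeq starts of Psmb9 (34187330, minus strand) and Tap1 (34187556, plus strand) are 226 bases apart, so their promoter windows share 275 of 300 bases, the CCAAT box shown for Psmb9 included. Tap1 measured 734 and 768 CPM in WT 21 and WT 22, 406 CPM in the library labelled WT 23, and 399, 413 and 404 CPM in Atg5 CD11cKO libraries. It fell by more than Psmb9, with a log2 fold change of -0.88 and an SE of 0.034 (edgeR adjusted p = 3.82e-09 without the library labelled WT 23), and the ratio of Psmb9 to Tap1 was 0.561 and 0.497 in WT 21 and WT 22 against 0.658 to 0.674 in Atg5 CD11cKO libraries and 0.677 in the library labelled WT 23. That difference between ratios was not tested. Exons of Psmb9 and Tap1 overlap on opposite strands, as do those of Psmb8 and Gm20496 and of Psme1 and Emc9, and whether counting used strand is not stated, so reads of such pairs may not have been told apart.

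The rings of the core without catalytic activity moved little. Without the library labelled WT 23, 1 of the 8 alpha ring genes was lower and none higher, beside 15.1% and 15.9% of all genes. Their median log2 fold change was -0.00. Psma7 (chr2:180036374-180042433, minus strand), the lowest of the ring, read 265 and 249.9 CPM in WT 21 and WT 22, 234 CPM in the library labelled WT 23, and 225, 239 and 232 CPM in Atg5 CD11cKO libraries. Its groups did not overlap, at a log2 fold change of -0.14 with an SE of 0.046 (edgeR adjusted p = 0.0334), and the call was lost without WT 21, KO 25 or KO 27. Psma8, the alpha subunit of meiotic germ cells in the testis, was the highest of the ring by fold change but had the fewest counts, at 2.36 and 2.69 CPM in WT 21 and WT 22, 2.51 CPM in the library labelled WT 23 and 2.44, 3.03 and 3.40 CPM in Atg5 CD11cKO libraries. These levels overlapped, and 0.23 with an SE of 0.303 did not pass (adjusted p = 0.623). Psma1 to Psma6 had log2 fold changes of -0.07 to 0.06, none of which passed.

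Among the 4 non-catalytic beta subunits, the median log2 fold change was -0.07 without the library labelled WT 23. Of these, 1 was lower and none higher, beside 15.1% and 15.9% of all genes. Psmb1 (chr17:15475021-15499751, minus strand) read 204 and 202 CPM in WT 21 and WT 22, 178.5 CPM in the library labelled WT 23, and 183, 183 and 184 CPM in Atg5 CD11cKO libraries. The library labelled WT 23 was the lowest of all, and the groups did not overlap without it, at a log2 fold change of -0.14 with an SE of 0.042 (edgeR adjusted p = 0.0231, 0.577 over the 6 libraries as labelled), a call that was lost when any further library was left out. Psmb2 (-0.05, SE 0.049), Psmb3 (-0.08) and Psmb4 (-0.06) did not pass, and each overlapped between groups. Psmb11, the catalytic subunit of thymic cortical epithelium, was too low to test, at 0.0296 to 0.0955 CPM, or 1 to 3 counts in each library.

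The regulatory cap leaned the other way. Without the library labelled WT 23, 8 of its 17 genes were higher in Atg5 CD11cKO libraries (2 of 6 ATPases and 6 of 11 non-ATPases) and none was lower, beside 15.9% and 15.1% of all genes, and over the 6 libraries as labelled none of the 17 passed. Median log2 fold changes were 0.11 for the ATPases and 0.17 for the non-ATPases. All 6 ATPases had a positive value, but Psmc1, Psmc2, Psmc3 and Psmc4 (0.05 to 0.12) did not pass.

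Psmc6 (chr14:45329788-45349705, plus strand), an ATPase of the base that carries the antioxidant response element core shown above, read 52.4 and 55.2 CPM in WT 21 and WT 22, 66.6 CPM in the library labelled WT 23, and 70.0, 68.6 and 67.0 CPM in Atg5 CD11cKO libraries. All 4 of the latter libraries lay above WT 21 and WT 22. Its log2 fold change was 0.36 with an SE of 0.072 (edgeR adjusted p = 0.00294) and 0.24 over the 6 libraries as labelled (adjusted p = 0.350). Psmc1, the ATPase with the lowest value, read 121 and 119 CPM in WT 21 and WT 22, 118 CPM in the library labelled WT 23 and 130, 124 and 116 CPM in Atg5 CD11cKO libraries, which overlapped (0.05, SE 0.061, adjusted p = 0.612). Psmc5 was higher by 0.18 (adjusted p = 0.0346), with the library labelled WT 23 the highest of all at 113 CPM, and its call was lost without WT 21, WT 22, KO 26 or KO 27.

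Psmd1 (chr1:86064387-86139151, plus strand) encodes a large scaffold of the base. It read 121 and 113 CPM in WT 21 and WT 22, 148.5 CPM in the library labelled WT 23, and 154, 152 and 144 CPM in Atg5 CD11cKO libraries, with no overlap between WT 21 and WT 22 and the other libraries. The rise was 0.36 on the log2 scale with an SE of 0.057 (edgeR adjusted p = 0.000557), against 0.23 over the 6 libraries as labelled (adjusted p = 0.362). Exons of Psmd1 overlap those of Gm21972 on the same strand and of Htr2b on the opposite strand. The other non-ATPases that passed were Psmd7 (0.30, adjusted p = 0.00286), a lid subunit that pairs with Psmd14, Psmd6 (0.28, 0.00598), also of the lid, Psmd14 (0.24, 0.00922), the deubiquitinase of the lid, Psmd2 (0.22, 0.00661), the other large scaffold of the base, and Psmd8 (0.17, 0.0166), a lid subunit whose call was lost without WT 22 or KO 27. Psmd6 differed from the rest in that the library labelled WT 23, at 75.1 CPM, lay nearer to WT 21 and WT 22 (69.1 and 71.2 CPM) than to the Atg5 CD11cKO libraries (83.4 to 86.1 CPM). Psmd13, the lowest of the group, read 104 and 94.8 CPM in WT 21 and WT 22, 89.3 CPM in the library labelled WT 23 and 87.6, 90.6 and 94.5 CPM in Atg5 CD11cKO libraries. WT 22 and the highest Atg5 CD11cKO library differed by less than 1 CPM, and the log2 fold change of -0.12 with an SE of 0.066 did not pass (adjusted p = 0.185). Psmd3 (-0.10), Psmd4 (-0.12, the ubiquitin receptor), Psmd11 (0.12) and Psmd12 (0.04) did not pass either.

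**Figure D4:**
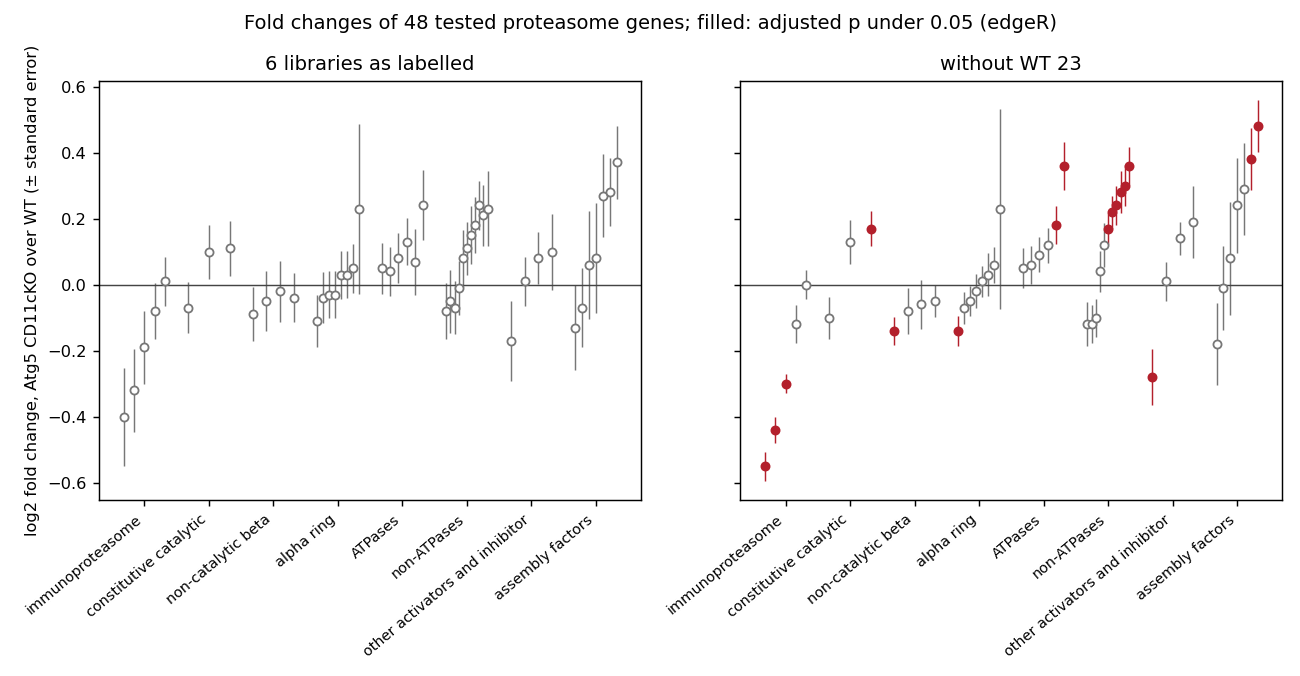
Log2 fold change of Atg5 CD11cKO over WT (vertical axis) with its standard error for 48 tested proteasome genes by role group, over the 6 libraries as labelled (left) and without the library labelled WT 23 (right), filled where edgeR's adjusted p was under 0.05. No gene is filled on the left, and on the right filled genes of the immunoproteasome lie below 0 and those of the cap above it.

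Among the other activators and the inhibitor, 1 of 4 was lower without the library labelled WT 23 and none higher, beside 15.1% and 15.9% of all genes. Psmf1 (chr2:151715812-151744186, minus strand), which encodes a protein that binds the core and inhibits it in vitro, read 56.6 and 55.5 CPM in WT 21 and WT 22, 43.5 CPM in the library labelled WT 23, and 47.5, 47.7 and 42.6 CPM in Atg5 CD11cKO libraries. Both WT 21 and WT 22 lay above the other 4 libraries, and the log2 fold change was -0.28 with an SE of 0.084 (edgeR adjusted p = 0.0249, 0.481 over the 6 libraries as labelled). This call was lost without WT 21, WT 22 or KO 27. Psme3 (chr11:101316213-101323537, plus strand) read 136 and 138 CPM in WT 21 and WT 22, 152 CPM in the library labelled WT 23, and 151, 151 and 147 CPM in Atg5 CD11cKO libraries, again without overlap, but 0.14 with an SE of 0.049 fell just outside the threshold (adjusted p = 0.053). Psme4, an activator of nuclear proteasomes, read 28.6 and 24.4 CPM in WT 21 and WT 22, 31.2 CPM in the library labelled WT 23, and 30.8, 29.8 and 29.6 CPM in Atg5 CD11cKO libraries. WT 21 lay close to the Atg5 CD11cKO range and WT 22 lower, so that 0.19 with an SE of 0.109 did not pass (adjusted p = 0.232). Psme2b had a log2 fold change of 0.01 (adjusted p = 0.940).

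The assembly factors held the member with the greatest rise. Without the library labelled WT 23, 2 of the 7 genes were higher and none lower, beside 15.9% and 15.1% of all genes. Their median log2 fold change was 0.24. Psmd5 (chr2:34849734-34874968, minus strand), a chaperone that holds part of the cap base during its assembly, read 51.4 and 50.1 CPM in WT 21 and WT 22, 62.4 CPM in the library labelled WT 23, and 75.8, 67.2 and 68.4 CPM in Atg5 CD11cKO libraries. The library labelled WT 23 lay between the groups here, nearer to the Atg5 CD11cKO libraries. The log2 fold change was 0.48 with an SE of 0.079 (edgeR adjusted p = 0.000727) and 0.37 over the 6 libraries as labelled (adjusted p = 0.338). Psmd10 (gankyrin), another chaperone of the base, read 30.1 and 28.7 CPM in WT 21 and WT 22, 34.8 CPM in the library labelled WT 23, and 38.5, 38.8 and 36.8 CPM in Atg5 CD11cKO libraries, with the same order and a log2 fold change of 0.38 (SE 0.094, adjusted p = 0.0103). The third base chaperone, Psmd9, had the lowest value of the group, at 28.9 and 31.6 CPM in WT 21 and WT 22, 26.5 CPM in the library labelled WT 23 and 26.2, 29.9 and 23.4 CPM in Atg5 CD11cKO libraries. These overlapped (-0.18, SE 0.124, adjusted p = 0.300). The chaperones of the core, Psmg1 to Psmg4, had values of -0.01 to 0.29 with SEs of 0.128 to 0.171, and none passed. Psmc3ip, at 2.63 to 5.29 CPM, had a log2 fold change of -0.56 with an SE of 0.275 that did not pass (adjusted p = 0.152).

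Near-identical copies elsewhere in the genome limit some of these values. A transcript of at least 95% identity over at least 300 bases was found for 11 members, and for 8 of them the counts given to copies summed to over 5% of the member's own. Beside Psme2 and Psme2b these were Psma2, Psma3, Psma4, Psma5, Psmb3 and Psmd11, with copies at 46.1% of the level of Psma3 and 51.7% of that of Psma5, and none of the 8 was among the 17 called. Exons overlapped another gene in 15 members, of which 4 were called (Psmb8, Psmb9, Psme1 and Psmd1).

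Genes that work with the proteasome were read from 5 lists. Over the 6 libraries as labelled no gene of any list passed, and the counts below are without the library labelled WT 23, beside 15.9% of all genes higher and 15.1% lower. Of 15 proteasome partners, 4 were higher and 1 lower. Ubqln1, a shuttle that brings ubiquitin-tagged proteins to the cap, read 150.3 and 138 CPM in WT 21 and WT 22, 191 CPM in the library labelled WT 23 and 188 to 216 CPM in Atg5 CD11cKO libraries (0.50, edgeR adjusted p = 0.000118). Usp14, a deubiquitinase that docks on the cap, read 63.0 and 63.4 CPM against 83.5 to 93.7 CPM, with 93.2 CPM in the library labelled WT 23 (0.48, adjusted p = 0.00035). Both were higher in every Atg5 CD11cKO library, as were Ubqln4 (0.62, adjusted p = 0.000592), a related shuttle, and Akirin2 (0.45, adjusted p = 0.0126), which brings proteasomes into the nucleus. The 1 that was lower, Pomp, the chaperone that helps to insert the catalytic beta subunits, had a log2 fold change of -0.15 (adjusted p = 0.0248) and is named after its value was seen.

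Of 10 ubiquitin genes, 3 were lower and none higher. Ubb, a polyubiquitin gene, read 1652 and 1587 CPM in WT 21 and WT 22, 1249 CPM in the library labelled WT 23 and 1302 to 1305 CPM in Atg5 CD11cKO libraries (-0.31, edgeR adjusted p = 2.08e-06). Ufd1, a cofactor that helps to extract ubiquitin-tagged proteins, was also lower (-0.22, adjusted p = 0.0395). Uba6, a ubiquitin-activating enzyme, had a log2 fold change of 0.31 and did not pass (adjusted p = 0.0677).

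Of 9 genes for NRF1, NRF2 and their regulators, 3 were higher and 1 lower. Nfe2l1, which encodes NRF1, read 58.3 and 63.8 CPM in WT 21 and WT 22, 92.0 CPM in the library labelled WT 23 and 80.6, 86.6 and 71.8 CPM in Atg5 CD11cKO libraries (0.39, edgeR adjusted p = 0.00577). The library labelled WT 23 was the highest of all, and no Atg5 CD11cKO library overlapped WT 21 and WT 22. Nfe2l2, which encodes NRF2, was higher by 0.38 (adjusted p = 0.000323) and Ddi2, the protease that releases active NRF1, by 0.21 (adjusted p = 0.0387), while Mafk, a small Maf protein that pairs with either factor, was lower (-0.25, adjusted p = 0.00489). Among members with a promoter window, the antioxidant response element core was present in 2 of 10 that were higher (Psmb6 and Psmc6) and 0 of 5 that were lower, beside 14% of all windows. Its other carriers, Psmb5, Psmd12, Psmd9 and Psme4, did not pass. For the interferon-regulatory factor element the counts of higher and lower members were 0 and 1, for the gamma-activated site 1 and 1, and for the CCAAT box 2 and 2. None of the splits was tested.

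The genes that take proteasome products to MHC class I, 12 tested, were 4 higher and 7 lower. Beside Tap1, the class I heavy chain H2-K1 was lower (3019 and 3032 CPM in WT 21 and WT 22, 2139 to 2225 CPM in Atg5 CD11cKO libraries, -0.46, edgeR adjusted p = 2.14e-08), while the endoplasmic reticulum chaperones Calr (0.62, adjusted p = 2.27e-08) and Pdia3 (0.36, adjusted p = 9.94e-07) were higher. Of 14 interferon regulators, 2 were higher and 8 lower. The chains of the interferon-gamma receptor differed in direction, with Ifngr1 lower (-0.60, edgeR adjusted p = 2.01e-08) and Ifngr2 higher (0.83, adjusted p = 3.07e-06). Irf8, a factor that cDC1 and plasmacytoid DCs depend on, was lower (-0.45, adjusted p = 9.19e-09). Most cell type lists moved at the same time. None of the 5 B cell genes passed, with summed levels of 38.3 to 44.6 CPM over the 6 libraries. All 7 plasmacytoid DC genes and all 6 cDC1 genes, Irf8 among the latter, were lower, the cDC1 genes with summed levels of 3611 and 3659 CPM in WT 21 and WT 22 and 2511 to 2584 CPM in the other 4 libraries, as were 5 of 6 NK and ILC1 genes, all 7 T cell genes and all 5 Kupffer cell genes (summed levels of 1283 and 1270 CPM in WT 21 and WT 22 and 611 to 660 CPM in the other 4 libraries), whereas 6 of 7 mature DC genes were higher. Their part in the levels of the immunoproteasome genes was not tested.

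**Figure D5:**
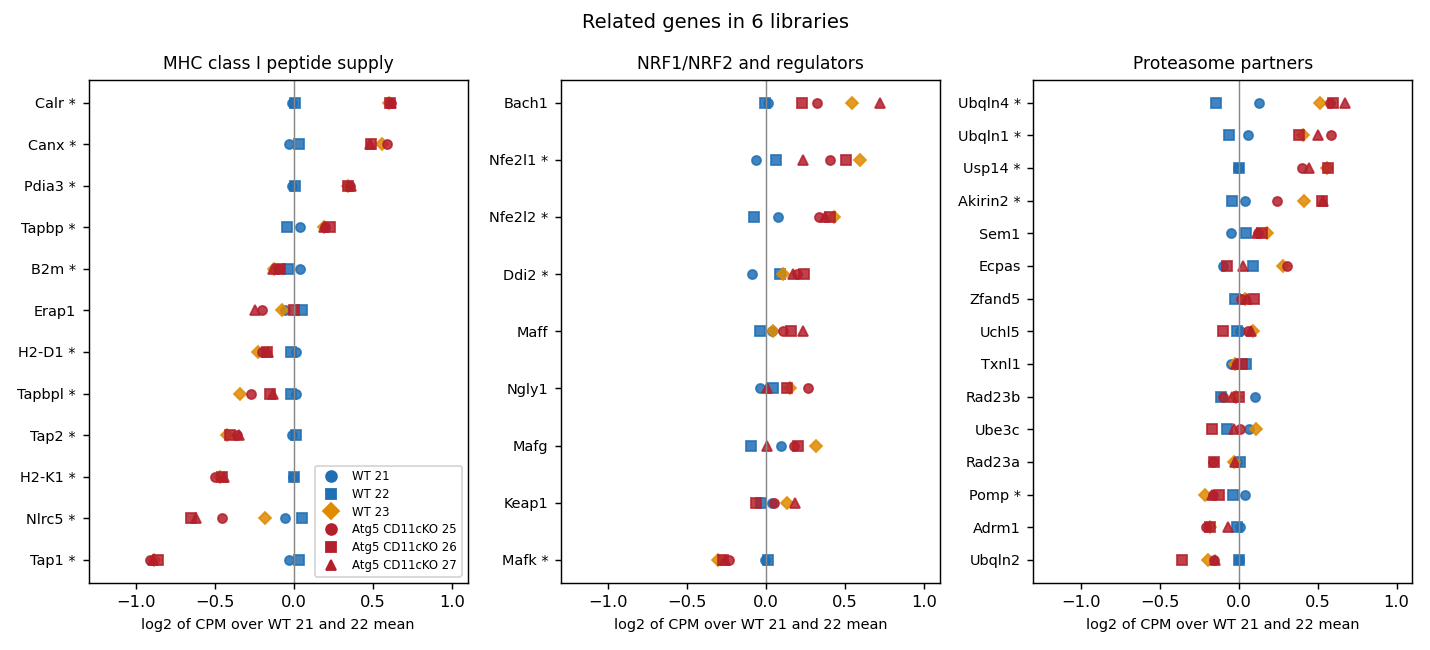
Level of the genes of 3 related lists in each library, as the log2 of CPM over the mean CPM of WT 21 and WT 22 (horizontal axes), with a star where edgeR's adjusted p was under 0.05 without the library labelled WT 23. Tap1, H2-K1 and Mafk lay below WT 21 and WT 22 in all other libraries, and Calr, Nfe2l1, Nfe2l2, Ubqln1 and Usp14 above.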

How the data were processed

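RNA-seq of 6 libraries of hepatic CD11c+ cells was analysed, grouped by the submitters' labels. The deposited estimated counts per gene came from the authors' runs of Partek, STAR 2.5.3a and bcl2fastq 2.17.1.14 with the build mm10 (submitters' processing notes). How reads were counted, on which annotation and whether by strand, was not given in the sources used here. A second deposited table holds a normalized signal, which equals the estimated count plus 1 times 1 factor per library with a common 75th percentile, for 20388 genes.

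Estimated counts were rounded, filtered with filterByExpr, scaled by TMM and tested with edgeR 4.0.16 (quasi-likelihood F test, Benjamini-Hochberg over all genes tested, threshold 0.05) in R 4.3.3. Standard errors are the log2 fold change over the square root of F. Library totals of 31064570 to 34034675 counts set the counting precision. Gene coordinates came from GENCODE vM21, promoter windows from RefSeq, and copies from blastn 2.17.0. Ratios were compared by exact permutation tests in scipy 1.17.1. The code was tested on simulated counts. Alternatives were DESeq2 1.42.0, limma 3.58.1 (voom, and log2 of the normalized signal with a pseudocount of 1 or 0.1), other scalings and filters (1 CPM in 3 libraries), the study's thresholds, and the omission of each library. Members and lists were chosen with earlier results of these data known. Values in every library are given for the catalytic subunits and their inducible forms, Psme1, Psme2 and Psme3, and for the highest and lowest member of each other role group by log2 fold change, and up to 4 genes per related list are named by adjusted p. Psmd10 and other members are described in addition. Some genes of the related lists, which stay in their counts, are not reported here by name.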

Additional observations from a re-analysis of the deposited data

How the results depend on the processing

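Over the 6 libraries as labelled, edgeR called 0 genes in either direction, DESeq2 37 higher and 305 lower, and the study's rule of a 2-fold change at an unadjusted p under 0.05 gave 128 and 695. Leaving out 1 library gave 0 to 2900 genes higher and 0 to 2755 lower, and 0 to 11 members higher and 0 to 6 lower, with the upper ends reached without the library labelled WT 23. Without it, the normalized values with a pseudocount of 0.1 gave 1499 genes higher and 1604 lower, and the 2-fold rule 941 and 1327. For the members, the normalized values gave 4 higher and 3 lower with a pseudocount of 1, and 1 and 2 with 0.1, where Psmb8 was lost and 3 of the 17 calls were shared, and the 2-fold rule gave 0 and 0. The cause of these differences was not tested. Leaving out a further library gave 8 to 11 members higher and 3 to 5 lower. All 17 calls were kept under DESeq2, limma-voom, RLE factors, library totals and the 1 CPM filter, and 15 without a filter (Psma7 and Psmb1 were lost). Over further omissions Psmb10 to Psmb7 ranged from -0.055 to 0.018 with the 6 libraries as labelled and from -0.077 to 0.028 without the library labelled WT 23, and Psme1 to Psme3 from -0.638 to -0.519, each as a difference of log2 ratios. The log2 fold change of Psme2 stayed close to 0 and changed sign. It ranged over omissions from -0.005 to 0.043 with the 6 libraries as labelled and from -0.044 to 0.049 without the library labelled WT 23, and was -0.000 with library totals without acinar and hepatocyte genes in the former, and 0.013 with library totals, 0.006 without a filter and 0.001 with limma-voom in the latter. No paired analysis was possible because the genotypes share no replicate number. With 2 WT libraries left, the spread between WT libraries rests on a single pair, and genes near the filter such as Psma8 and Psmc3ip had the widest errors.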
